A study of Mus musculus with 6 samples.

Results

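The genes described here are 35 mouse genes of the lysosome and of autophagy, picked by name from the 25638 genes of the deposited expression table. All 35 were found, and 34 passed the filter on low values (a minimum of 1 FPKM in 2 or more libraries). The exception was Mitf. FPKM scales the reads of a gene by its length and by the reads counted in the library, so it is a level per length. The cells were CD8+ T cells of genotype WT that carry the OT-I receptor, a transgenic T cell receptor for the ovalbumin peptide OVA257-264. All groups received this peptide for 48 h. In the first group the T cells were cultured with TANs, in the second with TAMos and in the third with vehicle, with 2 libraries in each of the 3 groups. TANs (CD11b+Ly6G+Ly6Clow) and TAMos (CD11b+Ly6G-Ly6Chigh) were myeloid cells taken from the spleen, not the tumour, of mice bearing LLC tumours, a transplanted lung carcinoma. The sources used here do not spell out TAN and TAMo. RNA was sequenced from T cells purified once the culture ended. The labels do not say whether replicate libraries derive from different cultures or mice, so a p-value measures only the spread between these libraries, which may be technical.

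Lysosomes are acidic compartments in which hydrolases, among them the cathepsins, break down proteins, lipids and sugars. A proton pump, the V-ATPase, acidifies them, and heavily glycosylated membrane proteins such as LAMP1 line them. Autophagy brings cytoplasm to the lysosome: ULK1 and the Beclin 1 lipid kinase complex start it, ubiquitin-like conjugation enzymes attach proteins of the Atg8 family (LC3 and GABARAP) to the growing membrane, and receptors such as SQSTM1 (p62) bind both cargo and Atg8 proteins. Many of these genes carry in their promoters the CLEAR motif, an extended E-box bound by the MiT/TFE factors TFEB, TFE3 and MITF. When the kinase mTORC1 is active on the lysosome it keeps TFEB and TFE3 out of the nucleus, so that RNA levels of these factors do not report their activity.

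The motif was searched in RefSeq promoters of the build GRCm38.p6, which hold 250 bases before to 50 after an annotated start and were given for 29 of the 35 genes, 5 of them with several starts. Promoters of Npc1, Ctsb, Atp6v1h, Becn1, Atg16l1 and Map1lc3a were not used here. On either strand, the core CACGTG occurred in 34.5% of the 29 genes (10 genes), in 12.2% of the 8358 tested genes with a promoter and in 8.09% of all 27025 genes with one. With a flanking base, as TCACGTG or its reverse complement CACGTGA, it occurred in 27.6% of the 29 genes (8 genes), against 7.35% of tested genes and 4.29% of all genes. The full palindrome TCACGTGA, which contains both shorter forms, occurred in 20.7% of them (6 genes), against 2.4% of tested genes and 1.12% of all genes. TCACGTGA with a G before it and a C after it, the form closest to the published CLEAR consensus, was in none of the 29 windows and in 0.897% of tested genes. These are matches of letters in windows of one length, and genes with several starts counted once if any window matched. Shown are the 7 genes that held the flanked core and were called higher with TAMo, in the comparison given further on. Because that call chose them, these lines cannot show whether the motif goes with a rise. Gla held 2 flanked cores, at positions -227 and -194 from its start, and is not shown because it was not called. Each line holds 150 bases before to 20 after the start, 5′ to 3′ on the strand of the gene, with the core and any flanking T or A in capitals.
Lamp1 (GRCm38.p6 chr8:13159011-13159180, plus strand): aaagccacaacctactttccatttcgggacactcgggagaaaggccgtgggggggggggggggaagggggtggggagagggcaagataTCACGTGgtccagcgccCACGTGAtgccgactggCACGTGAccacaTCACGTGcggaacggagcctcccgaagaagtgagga
Mcoln1 (GRCm38.p6 chr8:3500369-3500538, plus strand): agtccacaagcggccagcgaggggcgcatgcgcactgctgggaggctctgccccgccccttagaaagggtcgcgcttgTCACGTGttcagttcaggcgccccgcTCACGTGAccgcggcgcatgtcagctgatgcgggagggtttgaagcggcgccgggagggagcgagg
Ctsd (GRCm38.p6 chr7:142387808-142387977, minus strand): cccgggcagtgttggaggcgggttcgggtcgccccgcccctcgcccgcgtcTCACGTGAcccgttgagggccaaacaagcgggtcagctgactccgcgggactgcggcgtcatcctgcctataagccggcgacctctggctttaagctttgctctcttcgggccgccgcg
Ctsa (GRCm38.p6 chr2:164833623-164833792, plus strand): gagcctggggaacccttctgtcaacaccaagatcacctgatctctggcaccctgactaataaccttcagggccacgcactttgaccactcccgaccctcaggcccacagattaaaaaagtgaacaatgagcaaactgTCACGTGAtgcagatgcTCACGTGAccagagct
Atp6v1a (GRCm38.p6 chr16:44139240-44139409, minus strand): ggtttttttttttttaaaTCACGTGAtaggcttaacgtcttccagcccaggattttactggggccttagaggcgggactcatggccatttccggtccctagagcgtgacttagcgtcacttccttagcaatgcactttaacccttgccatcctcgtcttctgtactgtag
Atp6v0d1 (GRCm38.p6 chr8:105566045-105566214, minus strand): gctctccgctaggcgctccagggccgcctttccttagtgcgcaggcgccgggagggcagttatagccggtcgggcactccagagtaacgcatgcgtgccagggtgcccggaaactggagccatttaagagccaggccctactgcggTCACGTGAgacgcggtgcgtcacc
Atg7 (GRCm38.p6 chr6:114670946-114671115, plus strand): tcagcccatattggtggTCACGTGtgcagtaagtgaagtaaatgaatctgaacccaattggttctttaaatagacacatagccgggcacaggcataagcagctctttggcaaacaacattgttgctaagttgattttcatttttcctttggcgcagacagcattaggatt
Lamp1 held 4 cores, whose first bases lay at positions -61, -45, -28 and -15 relative to the start (the start itself is +1). Mcoln1 held a pair at -71 and -45, and Ctsa a pair at -12 and 6 of its second annotated start. Ctsd held one at -98 and another, outside the printed stretch, at -245. Atp6v0d1 had its core at -3, Atp6v1a at -131 and Atg7 at -132. The start of Atg7 used here is internal, well inside the gene's GENCODE span (chr6:114643097-114860614, plus strand). No window at the upstream end of that span was given. The printed stretches of Ctsa, Ctsd and Atp6v1a also lie wholly within the spans of their genes.

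TAMo replicate 1 stood apart in estimated depth. Read from the steps between low FPKM values, depth was 44.87 and 44.77 M counted reads in the TAN libraries, 21.92 and 41.66 M in the TAMo libraries and 44.78 and 45.21 M in the vehicle libraries, so TAMo replicate 1 may have been read less deeply. As read numbers, its low values were even in 41.9% of cases, against 60.3% to 63.7% in the other libraries. Whether its step was of single reads or of pairs was not tested. A library had 10146 to 10198 genes at 1 FPKM or more, and replicates correlated across genes with Pearson's r of 0.996 to 0.998. Mitochondrial transcripts took 8.07% and 8.21% of the summed FPKM in TAN libraries, 1.20% and 1.32% in TAMo libraries and 8.15% and 8.34% in vehicle libraries, and the part of this share in the changes below was tested only by rescaling. All 10 T cell markers were above 1 FPKM in every library, with summed levels of 1776 and 1777 FPKM with TAN, 1936 and 1904 FPKM with TAMo and 1851 and 1860 FPKM with vehicle. With TAMo 7 of the 10 rose and Cd8a, Cd8b1 and Cd2 fell, where 45.7% of all tested genes rose and 40.7% fell. Cd2, an adhesion receptor of T cells, had 48.2 and 55.3 FPKM with TAMo and 189 and 203 FPKM with vehicle.

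Because phagocytes are rich in lysosomes, markers of the co-cultured cells were examined beside the lysosomal genes. Of 23 monocyte and macrophage markers, C1qa, C1qb, C1qc and Marco were at 0 in all 6 libraries, and 20 were below 1 FPKM in all of them. The 3 that reached 1 FPKM in a library included Apoe and Cd14. The macrophage markers Csf1r and Adgre1 and the lysozyme gene Lyz2 never exceeded 0.18 FPKM. The list summed to 19.5 and 19.5 FPKM with TAN, 13.5 and 14.7 FPKM with TAMo and 24.5 and 23.9 FPKM with vehicle. Most of this was Apoe, and without it the sums were 2.71 and 2.83 FPKM with TAN, 6.11 and 6.91 FPKM with TAMo and 2.74 and 3.18 FPKM with vehicle. Cd14, the endotoxin co-receptor of monocytes, had 0.085 and 0.028 FPKM with TAN, 2.84 and 3.17 FPKM with TAMo and 0.085 and 0.056 FPKM with vehicle. All 14 neutrophil markers were below 1 FPKM in every library, 7 of them at 0 throughout, and they summed to 0.074 and 0.14 FPKM with TAN, 0.33 and 0.58 FPKM with TAMo and 0.062 and 0.049 FPKM with vehicle. The 7 dendritic cell markers summed to 2.28 and 2.87 FPKM with TAN, 7.35 and 6.86 FPKM with TAMo and 3.30 and 2.81 FPKM with vehicle. Zbtb46, the only one of them above 1 FPKM, had 5.90 and 5.09 FPKM with TAMo and 1.93 and 1.51 FPKM with vehicle and rose (log2 change 1.26, adjusted p = 3.19e-05). Of 5 B cell markers, 4 reached 1 FPKM in a library. They summed to 7.33 and 9.19 FPKM with TAN, 6.88 and 7.55 FPKM with TAMo and 8.04 and 9.36 FPKM with vehicle over all 5. Cd68, a lysosomal glycoprotein used to mark macrophages and named here after its values were seen, had 2.65 and 1.82 FPKM with TAN, 3.63 and 7.05 FPKM with TAMo and 2.95 and 2.35 FPKM with vehicle (adjusted p = 0.0249 with TAMo), with the TAMo libraries far apart. The part of these marker levels in the changes below was not tested. In bulk RNA a smaller number of cells of a type and less RNA per cell cannot be told apart.

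With TAMo, 23 of the 34 tested genes rose against vehicle and 7 fell, while 4 did not pass the test (limma, adjusted p under 0.05). This comparison called 86.5% of all 10727 tested genes, 45.7% higher and 40.7% lower, so the number of called genes by itself says little, and the direction and size carry the description. The 34 genes had a median log2 change of 0.46, against 0.057 over all tested genes, whose quartiles were -0.60 and 0.67. The change ranged from -1.80 for Tfeb to 2.54 for the protease gene Ctsd, and 9 of the 34 moved by at least 1, which 29.3% of all tested genes did. Summed over all 35 genes, the level was 1687 and 1678 FPKM with TAMo and 1104 and 1095 FPKM with vehicle, a ratio of 1.53.

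With TAN the same genes moved little. Against vehicle 7 rose and 4 fell, and 23 did not pass the test, where 20.3% of all genes were called, 9.37% higher and 11% lower. The median log2 change was 0.01, with a range from -0.33 to 0.52, and none moved by 1 or more. The summed level was 1133 and 1132 FPKM with TAN, against 1104 and 1095 FPKM with vehicle, a ratio of 1.03. Of the 11 calls, those of the proton pump genes Atp6v1a and Atp6v1h were kept under all 16 alternative settings, and the other 9 were lost under at least 1 of them. Leaving out either vehicle or either TAN library left 3 or 4 called genes, against 11 with all libraries. Compared directly, 6 of the 34 genes were higher and 23 lower with TAN than with TAMo, where 86.6% of all genes were called, 40.6% higher and 46% lower, and the median difference was -0.43. Both comparisons with vehicle use the same vehicle libraries.

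**Figure D1:**
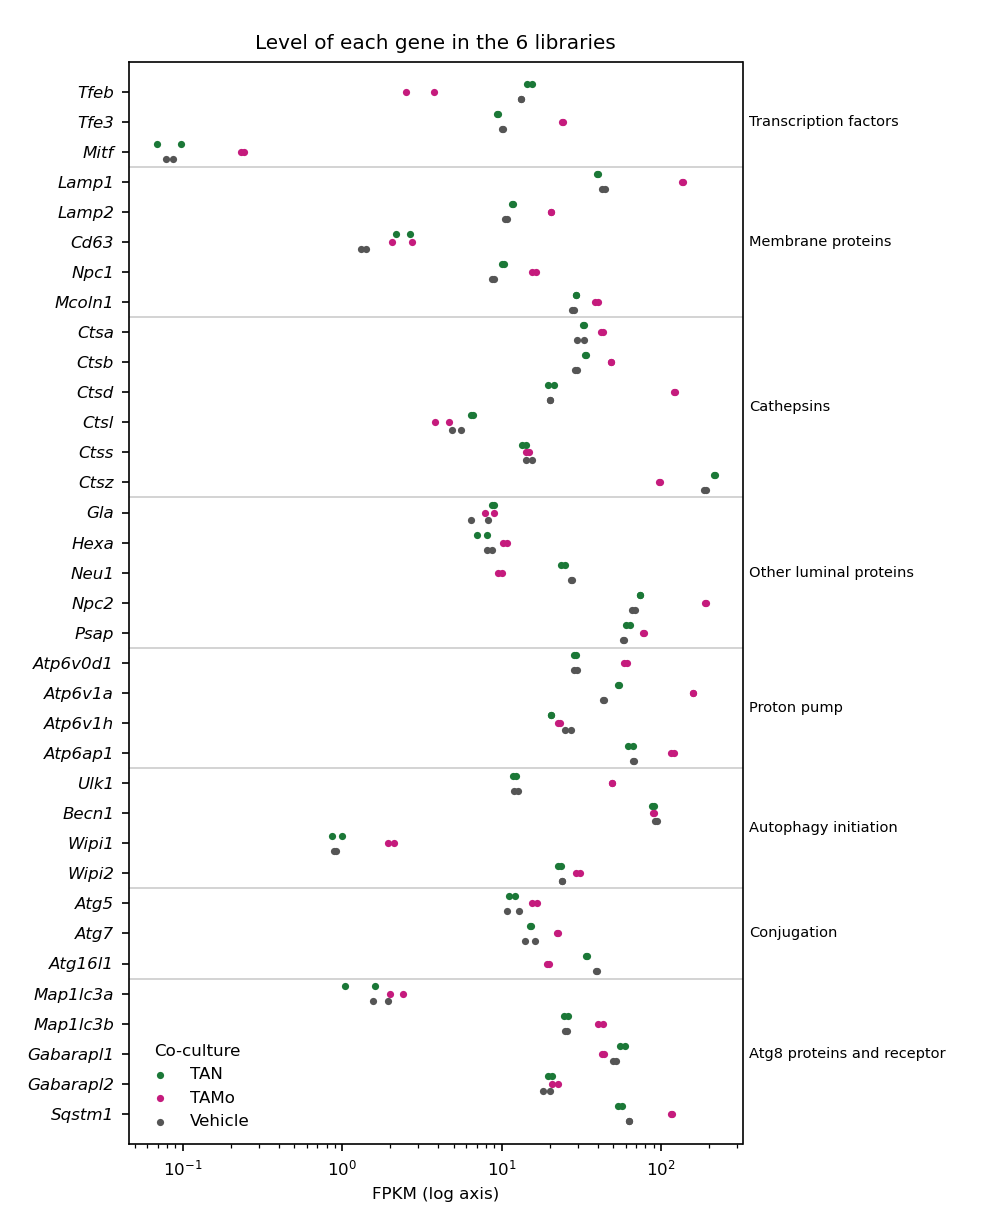
Level of each of the 35 genes in FPKM (log axis) in each of the 6 libraries, grouped by role, with TAN libraries in green, TAMo libraries in magenta and vehicle libraries in grey. The TAMo points of Lamp1, Ctsd, Npc2, Atp6v1a and Ulk1 lie to the right of the other 4 libraries and those of Tfeb, Ctsz, Neu1 and Atg16l1 to the left.

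Of the 3 transcription factors of the family, Tfeb fell and Tfe3 rose with TAMo, and Mitf was too low to test. Tfeb (chr17:47737030-47792419 on GRCm38, with gene coordinates here and below from GENCODE release M21), the factor best known for driving lysosomal genes, had 14.4 and 15.5 FPKM with TAN, 2.53 and 3.76 FPKM with TAMo and 13.3 and 13.3 FPKM with vehicle. Both TAMo libraries lay far below the other 4. With TAMo Tfeb fell by 1.80 ± 0.13 on the log2 scale (SE, n = 2 libraries per group, as in all log2 changes here; limma adjusted p = 5.2e-06), and its mean FPKM was 4.23-fold lower than with vehicle. Tfe3 (chrX:7762560-7775202), which binds the same motif, had 9.34 and 9.51 FPKM with TAN, 24.1 and 23.9 FPKM with TAMo and 10.2 and 10.1 FPKM with vehicle. It rose 2.36-fold with TAMo (log2 change 1.16 ± 0.046, adjusted p = 1.82e-07), so that the TAMo libraries were the highest for Tfe3 and the lowest for Tfeb. With TAN neither factor passed the test, at log2 changes of 0.16 ± 0.13 for Tfeb (adjusted p = 0.437) and -0.098 ± 0.046 for Tfe3 (adjusted p = 0.177). The ratio of Tfe3 to Tfeb, both per length, was 0.647 and 0.615 with TAN, 9.54 and 6.36 with TAMo and 0.771 and 0.757 with vehicle. Mitf, the family member known from pigment and mast cells, stayed below the filter and was not tested. Its level was 0.0686 and 0.0981 FPKM with TAN, 0.241 and 0.232 FPKM with TAMo and 0.0785 and 0.0875 FPKM with vehicle. Both TAMo libraries were above the others, and below the Tfeb level of the same library.

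**Figure D2:**
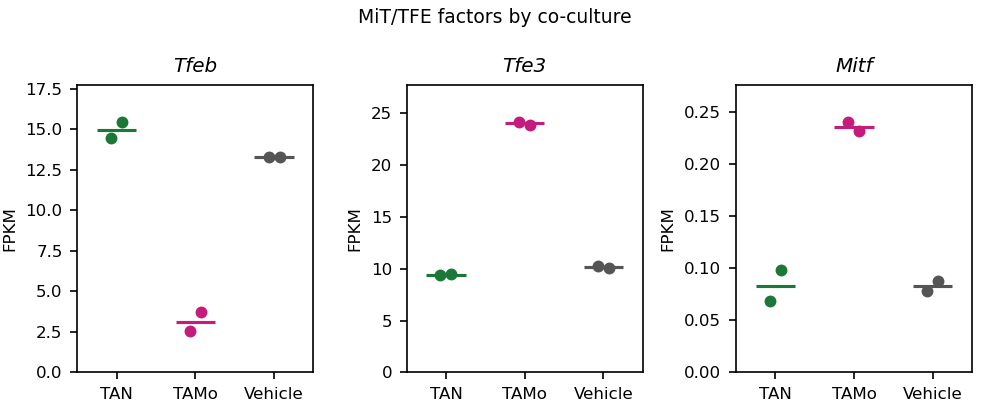
Level in FPKM (linear axes from 0) of Tfeb, Tfe3 and Mitf by co-culture, with 1 point per library and a line at the mean of the 2 libraries. The TAMo points are the lowest for Tfeb, at 2.53 and 3.76 FPKM, and the highest for Tfe3, at 24.1 and 23.9 FPKM.

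All 5 membrane proteins of the lysosome rose with TAMo, where 45.7% of all tested genes rose. Lamp1 (chr8:13159161-13175338), the most abundant of them, had 40.1 and 39.7 FPKM with TAN, 137 and 135 FPKM with TAMo and 44.7 and 42.5 FPKM with vehicle. It rose 3.12-fold with TAMo (log2 change 1.62 ± 0.034, adjusted p = 8.11e-09), whereas both TAN libraries lay just below both vehicle libraries (log2 change -0.12 ± 0.034, adjusted p = 0.043). Lamp2, whose isoforms serve in autophagosome fusion and in chaperone-mediated autophagy, had 20.3 and 20.5 FPKM with TAMo, against 10.5 and 10.9 FPKM with vehicle, a 1.91-fold rise (log2 change 0.88 ± 0.047, adjusted p = 1.03e-06). Npc1, which exports cholesterol from the lysosome, rose 1.81-fold with TAMo, and Mcoln1, its calcium channel TRPML1, rose 1.41-fold. Cd63, a tetraspanin of late endosomes and exosomes, was low in all groups, with 2.17 and 2.66 FPKM with TAN, 2.06 and 2.76 FPKM with TAMo and 1.42 and 1.32 FPKM with vehicle. It was the member with the largest rise with TAN, 1.76-fold (log2 change 0.52 ± 0.12, adjusted p = 0.0251), and it rose 1.76-fold with TAMo as well (adjusted p = 0.00468). TAN and TAMo libraries overlapped for Cd63 and did not pass the test against each other (log2 difference 0.0063, adjusted p = 0.962). Summed over the 5 genes, the membrane proteins were 2.32-fold higher with TAMo than with vehicle.

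The 6 cathepsins split. Ctsd (chr7:142375911-142388038), an aspartic protease, showed the largest rise of all 34 genes, with 21.5 and 19.7 FPKM with TAN, 121 and 122 FPKM with TAMo and 20.04 and 20.06 FPKM with vehicle. The TAMo libraries stood far above the other 4, a 6.06-fold rise (log2 change 2.54 ± 0.045, adjusted p = 3.62e-09), while TAN libraries lay on both sides of vehicle (adjusted p = 0.63). Ctsz (chr2:174427493-174439039), a cysteine carboxypeptidase and the most abundant of the 35 genes in TAN and vehicle libraries, went the other way. It had 217 and 214 FPKM with TAN, 97.8 and 98.9 FPKM with TAMo and 193 and 187 FPKM with vehicle. It fell by 0.94 ± 0.027 on the log2 scale with TAMo (adjusted p = 3.7e-08) and rose 1.13-fold with TAN (log2 change 0.18 ± 0.027, adjusted p = 0.00594). Per length, Ctsd was at 0.0989 and 0.0921 of the Ctsz level with TAN, at 1.24 and 1.23 with TAMo and at 0.104 and 0.107 with vehicle. The cysteine protease Ctsb rose with both, to 33.9 and 33.4 FPKM with TAN and 48.8 and 48.6 FPKM with TAMo, against 29.8 and 29.0 FPKM with vehicle (adjusted p = 0.0101 for TAN and 5.03e-07 for TAMo). Ctsa, the protective protein of neuraminidase and beta-galactosidase, rose 1.36-fold with TAMo. Ctsl, which had 3.84 and 4.69 FPKM with TAMo and 5.57 and 4.92 FPKM with vehicle, fell by 0.25 ± 0.096 on the log2 scale (adjusted p = 0.0412), a call that was lost under 8 of the 16 alternative settings. Ctss, the cathepsin that trims the invariant chain in antigen-presenting cells, had 14.8 and 14.3 FPKM with TAMo and 15.5 and 14.2 FPKM with vehicle, and these overlapped (adjusted p = 0.655). Summed, the 6 cathepsins stood 1.11-fold above vehicle with TAN and 1.13-fold with TAMo.

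Among the other 5 luminal proteins, Npc2 (chr12:84754562-84773152), which hands cholesterol to NPC1, had 73.6 and 73.5 FPKM with TAN, 193 and 188 FPKM with TAMo and 65.7 and 68.5 FPKM with vehicle. It rose 2.84-fold with TAMo (log2 change 1.49 ± 0.031, adjusted p = 7.83e-09) and 1.10-fold with TAN (log2 change 0.13 ± 0.031, adjusted p = 0.0279), and no groups overlapped. Neu1 (chr17:34931253-34935953), the lysosomal sialidase, had 25.1 and 23.6 FPKM with TAN, 9.50 and 10.1 FPKM with TAMo and 27.8 and 27.2 FPKM with vehicle. With TAMo it fell by 1.40 ± 0.051 on the log2 scale (adjusted p = 1.27e-07), a 2.802-fold lower mean. Thus Ctsa and Neu1, whose products form one complex, changed in opposite directions with TAMo. Psap, the precursor of the saposins that present lipids to hydrolases, rose 1.33-fold with TAMo. Hexa, a subunit of beta-hexosaminidase, rose 1.24-fold (adjusted p = 0.00888), but leaving out vehicle replicate 2 ended its call (adjusted p = 0.0575). Gla, the alpha-galactosidase that is deficient in Fabry disease, had 7.90 and 8.91 FPKM with TAMo and 8.24 and 6.44 FPKM with vehicle, with overlap and no call (adjusted p = 0.152). Rescaling to 1 sum without mitochondrial transcripts called Gla higher with TAMo (log2 change 0.268, limma adjusted p = 0.0451).

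**Figure D3:**
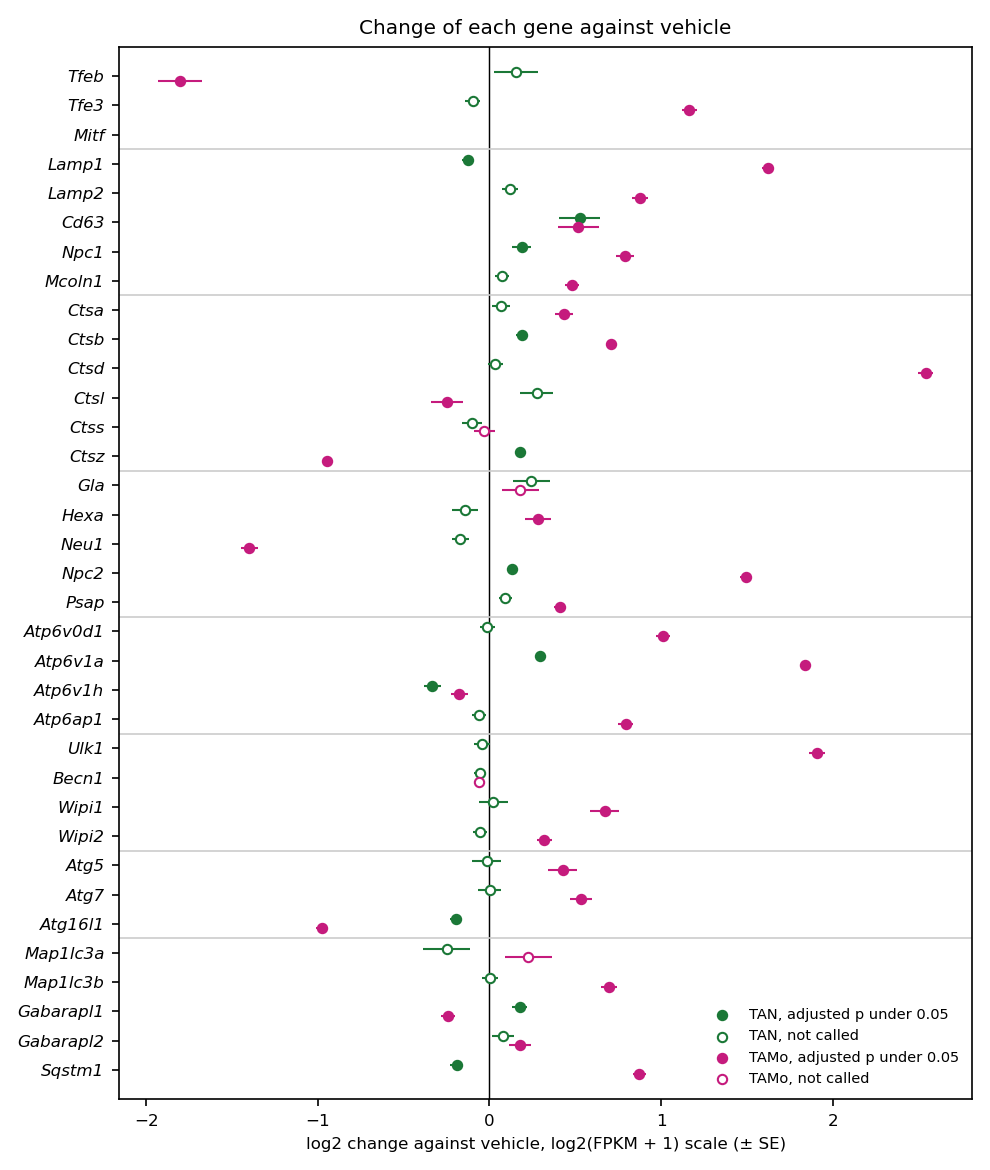
log2 change against vehicle on the log2(FPKM + 1) scale for each gene, with TAN in green and TAMo in magenta, filled where the adjusted p was under 0.05 and open where it was not. Bars are ± 1 SE and Mitf was not tested. The TAMo changes reach from -1.80 for Tfeb to 2.54 for Ctsd, while all TAN changes lie between -0.33 and 0.52.

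Of the 4 proton pump genes, 3 rose with TAMo and 1 fell, where 45.7% of all tested genes rose and 40.7% fell. Atp6v1a (chr16:44085402-44139705), the catalytic subunit of the cytosolic V1 sector, had 53.7 and 54.2 FPKM with TAN, 160.0 and 158 FPKM with TAMo and 44.0 and 43.5 FPKM with vehicle. No groups overlapped, and it rose 3.63-fold with TAMo (log2 change 1.84 ± 0.028, adjusted p = 1.88e-09) and 1.23-fold with TAN (log2 change 0.30 ± 0.028, adjusted p = 0.00105). Atp6v0d1, which joins the V0 sector to the central stalk, rose 2.05-fold with TAMo, and the accessory subunit gene Atp6ap1 rose 1.74-fold. Atp6v1h (chr1:5070018-5162529), the subunit that restrains ATP hydrolysis by free V1, had 20.5 and 20.5 FPKM with TAN, 23.3 and 22.6 FPKM with TAMo and 24.97 and 27.2 FPKM with vehicle. It fell with TAN by 0.33 ± 0.050 on the log2 scale (adjusted p = 0.00561), the largest fall of any member there. With TAMo it fell by 0.18 ± 0.050 (adjusted p = 0.0113), a call that 3 of the 16 alternatives lost, among them the rescaling without mitochondrial transcripts.

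The other genes of the pump were read from a list of 16 V-ATPase genes, of which 14 passed the filter. This list and those below were chosen with earlier results of these data known, so their counts are a description only. With TAMo 8 of the 14 rose and 2 fell, with a median log2 change of 0.31. Over all tested genes 45.7% rose and 40.7% fell with TAMo, and 9.37% rose and 11% fell with TAN. Atp6v1d, a stalk subunit of V1, rose 2.10-fold, to 30.2 and 27.2 FPKM with TAMo, against 13.9 and 13.4 FPKM with vehicle, and the proteolipid gene Atp6v0c rose 1.78-fold. The falls were those of Tcirg1, the a3 subunit of V0, with 34.9 and 33.7 FPKM with TAMo and 53.2 and 53.6 FPKM with vehicle, and of Atp6v1g1, another stalk subunit (log2 changes -0.62 and -0.59). With TAN 1 of the 14 rose and 1, Tcirg1, fell, at 46.9 and 48.2 FPKM (log2 change -0.16, adjusted p = 0.0177). The pump genes therefore did not move as a block, and subunits of both sectors were among those that rose and those that fell with TAMo.

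**Figure D4:**
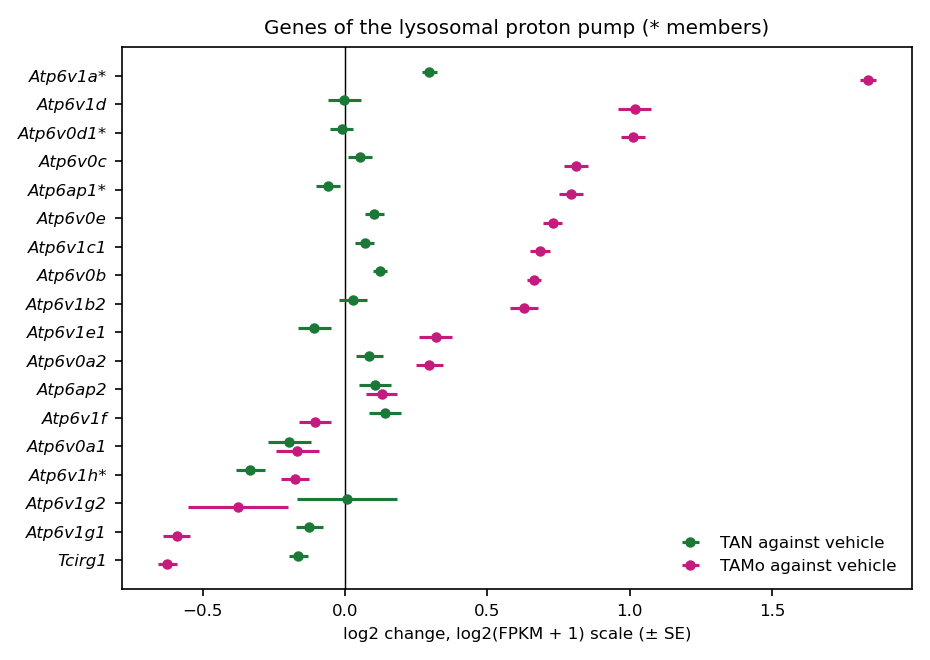
log2 change against vehicle (± SE) on the log2(FPKM + 1) scale for the 18 tested genes of the V-ATPase, sorted by the change with TAMo, with TAN in green, TAMo in magenta and an asterisk on the 4 members. The TAMo changes run from -0.62 for Tcirg1 to 1.84 for Atp6v1a, and of the members Atp6v1a rose (0.30) and Atp6v1h fell (-0.33) with TAN.

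Of the genes that start autophagy, Ulk1 (chr5:110784488-110810097), the kinase at the head of the pathway, had 12.2 and 11.8 FPKM with TAN, 49.0 and 49.4 FPKM with TAMo and 12.8 and 12.02 FPKM with vehicle. It rose 3.97-fold with TAMo (log2 change 1.91 ± 0.047, adjusted p = 1.67e-08), while TAN and vehicle libraries overlapped. Becn1, the scaffold of the lipid kinase complex, had 90.9 and 88.2 FPKM with TAN, 89.9 and 88.8 FPKM with TAMo and 91.4 and 94.96 FPKM with vehicle, and it passed the test in none of the 3 comparisons. Its exons overlap those of Cntd1 on the other strand by 43.9%, and Cntd1 was at most at 0.124 FPKM. The phosphoinositide-binding proteins Wipi1 and Wipi2 rose 2.25-fold and 1.26-fold with TAMo. Wipi1 was low, at 2.11 and 1.95 FPKM with TAMo and 0.892 and 0.913 FPKM with vehicle. None of the 4 initiation genes passed the test with TAN. In a list of 17 further initiation genes, 12 rose and 3 fell with TAMo, with a median log2 change of 0.52, and 0 rose and 1 fell with TAN. The shares over all tested genes were 45.7% higher and 40.7% lower with TAMo, and 9.37% and 11% with TAN. Atg14, which directs the lipid kinase complex to autophagosome sites, rose 3.38-fold, the lipid transfer gene Atg2b 2.83-fold and Rb1cc1, the ULK1 partner FIP200, 2.66-fold.

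In the conjugation machinery Atg5 and Atg7 rose with TAMo and Atg16l1 fell. Atg16l1 (chr1:87755870-87792428), which places the conjugation complex on the membrane, had 34.3 and 34.0 FPKM with TAN, 19.8 and 19.3 FPKM with TAMo and 39.1 and 39.5 FPKM with vehicle. The TAMo libraries were the lowest and the vehicle libraries the highest, with falls of 0.97 ± 0.035 on the log2 scale with TAMo (adjusted p = 1.15e-07) and of 0.20 ± 0.035 with TAN (adjusted p = 0.0103). Its partner Atg5 rose 1.37-fold and Atg7, the activating enzyme of both conjugation routes, 1.47-fold with TAMo, and for both TAN libraries overlapped vehicle. Of 8 tested genes in a list of other conjugation genes, 5 rose and 1 fell with TAMo. Among all tested genes 45.7% rose and 40.7% fell in this comparison. Atg12, the ubiquitin-like protein joined to ATG5, rose 3.04-fold, to 27.6 and 29.3 FPKM with TAMo, against 9.33 and 9.41 FPKM with vehicle.

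The Atg8 genes differed from each other. Map1lc3b, which encodes the LC3B used as an autophagosome marker, had 26.0 and 24.8 FPKM with TAN, 40.3 and 43.2 FPKM with TAMo and 25.1 and 25.7 FPKM with vehicle, a 1.64-fold rise with TAMo (log2 change 0.70 ± 0.047, adjusted p = 3.77e-06). Gabarapl1 had 55.7 and 59.9 FPKM with TAN, 42.4 and 43.7 FPKM with TAMo and 50.2 and 51.9 FPKM with vehicle. It rose with TAN (log2 change 0.17 ± 0.044, adjusted p = 0.0319) and fell with TAMo (log2 change -0.24 ± 0.044, adjusted p = 0.00118), so the groups stood on opposite sides of vehicle. Per length, Map1lc3b was at 0.467 and 0.414 of the Gabarapl1 level with TAN, 0.951 and 0.990 with TAMo and 0.501 and 0.495 with vehicle. Gabarap, a further Atg8 gene from the conjugation list, rose 3.03-fold with TAMo and 1.14-fold with TAN. Gabarapl2 rose 1.14-fold with TAMo (adjusted p = 0.033), a call lost under 6 of the 16 alternatives, and Map1lc3a, at 1.04 to 2.42 FPKM, passed against vehicle with neither. The sources used here do not say how reads shared by these related genes were counted.

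Sqstm1 (chr11:50199366-50210827), the receptor p62, had 53.4 and 57.2 FPKM with TAN, 118 and 116 FPKM with TAMo and 63.2 and 63.2 FPKM with vehicle. It rose 1.84-fold with TAMo (log2 change 0.87 ± 0.038, adjusted p = 3.11e-07), and both TAN libraries lay below vehicle (log2 change -0.19 ± 0.038, adjusted p = 0.0156). All 9 tested genes in a list of other autophagy receptors rose with TAMo, with a median log2 change of 0.97, and 1 of them, Tax1bp1, rose with TAN. Among all tested genes 45.7% rose with TAMo and 9.37% with TAN. Calcoco1, a receptor for the endoplasmic reticulum, had 1.97 and 2.46 FPKM with TAN, 33.4 and 33.9 FPKM with TAMo and 2.60 and 2.52 FPKM with vehicle, a 13.2-fold rise with TAMo (adjusted p = 1.84e-08). Bnip3l, the mitophagy receptor NIX, rose 2.74-fold, to 114 and 122 FPKM with TAMo, against 41.6 and 44.1 FPKM with vehicle, and Nbr1, which acts with p62, rose 2.41-fold. Tax1bp1, a receptor for ubiquitinated cargo, had 139.9 and 145 FPKM with TAN, 213 and 212 FPKM with TAMo and 106 and 108 FPKM with vehicle, so that it rose with TAN too (1.33-fold, log2 change 0.41, adjusted p = 0.00039).

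Lysosomal genes beyond the 35 were read from lists of hydrolases and of membrane and sorting genes. Of 37 tested hydrolases, 23 rose and 10 fell with TAMo (median log2 change 0.42), and 5 rose and 1 fell with TAN. The shares over all tested genes were 45.7% higher and 40.7% lower with TAMo, and 9.37% and 11% with TAN. Among hydrolase genes that averaged 5 FPKM or more in the higher group, the rises with TAMo with the largest log2 changes included those of Aga, which cleaves sugars from asparagine (5.83-fold, 40.8 and 40.6 FPKM with TAMo and 6.80 and 7.14 FPKM with vehicle), and the peptidase gene Tpp1 (4.99-fold). The falls included the serine carboxypeptidase gene Scpep1, with 4.16 and 4.14 FPKM with TAMo and 12.4 and 13.5 FPKM with vehicle, and Gusb, the beta-glucuronidase (log2 change -1.04). Ppt1, which removes fatty acids from proteins, had 31.3 and 33.7 FPKM with TAN, 33.9 and 31.3 FPKM with TAMo and 19.6 and 22.05 FPKM with vehicle. Here TAN and TAMo libraries overlapped above vehicle, with a 1.56-fold rise with TAN (log2 change 0.62, adjusted p = 0.00182). Ctsw, a cathepsin of cytotoxic lymphocytes, had 20.9 and 21.02 FPKM with TAN, 14.7 and 14.3 FPKM with TAMo and 29.7 and 28.1 FPKM with vehicle, and it fell with TAN by 0.45 on the log2 scale (adjusted p = 0.00124).

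Of 27 tested membrane and sorting genes, 15 rose and 6 fell with TAMo (median log2 change 0.24), and 2 rose and 1 fell with TAN. Beside these and the fusion genes below, 45.7% of all tested genes rose and 40.7% fell with TAMo. With TAN the shares were 9.37% and 11%. Igf2r, the mannose 6-phosphate receptor that sorts hydrolases to lysosomes, had 80.0 and 77.2 FPKM with TAN, 287 and 285 FPKM with TAMo and 57.3 and 58.2 FPKM with vehicle. It rose in both groups, 1.36-fold with TAN and 4.95-fold with TAMo. Scarb2, the LIMP-2 receptor that carries glucocerebrosidase, rose 4.21-fold with TAMo. Of 12 genes for fusion of autophagosomes with lysosomes, 9 rose and 2 fell with TAMo and 1 rose and 3 fell with TAN. Within this list the HOPS subunit genes Vps41 and Vps16 changed in opposite directions with TAMo: Vps41 rose 3.28-fold, and Vps16 had 42.1 and 39.9 FPKM with TAMo, against 97.4 and 95.6 FPKM with vehicle.

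In the list of 28 tested mTORC1 and Rag control genes, 12 genes were higher and 13 lower with TAMo, with a median log2 change of -0.08. Over all tested genes the shares were 45.7% higher and 40.7% lower. Sesn3, whose product is a sestrin, had 15.8 and 14.6 FPKM with TAN, 188 and 182 FPKM with TAMo and 14.3 and 12.8 FPKM with vehicle, a 13.6-fold rise with TAMo. Ddit4, the stress-induced mTORC1 inhibitor REDD1, had 132 and 128 FPKM with TAN, 606 and 589 FPKM with TAMo and 97.9 and 97.5 FPKM with vehicle, a rise of 6.11-fold with TAMo and 1.33-fold with TAN. Sesn2 rose 5.34-fold with TAMo, to 111 and 106 FPKM, and fell with TAN (log2 change -0.26, adjusted p = 0.0237). Nprl2, a subunit of the mTORC1 inhibitor GATOR1, and Wdr24 and Wdr59, subunits of GATOR2, which counters it, fell with TAMo by 0.80, 0.99 and 0.73 on the log2 scale. Over all 8 lists together, 93 of 152 tested genes rose and 37 fell with TAMo, with a median log2 change of 0.35, and 13 rose and 10 fell with TAN. With TAN 20.3% of all tested genes were called. Of 21 calls with TAN in these lists, up to 3 per list and direction with the largest log2 changes among genes that averaged 5 FPKM or more in the higher group, those of Ctsw, Ddit4, Igf2r, Ppt1 and Tax1bp1 were kept under all 16 alternatives, and each other call was lost under at least 1.

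**Figure D5:**
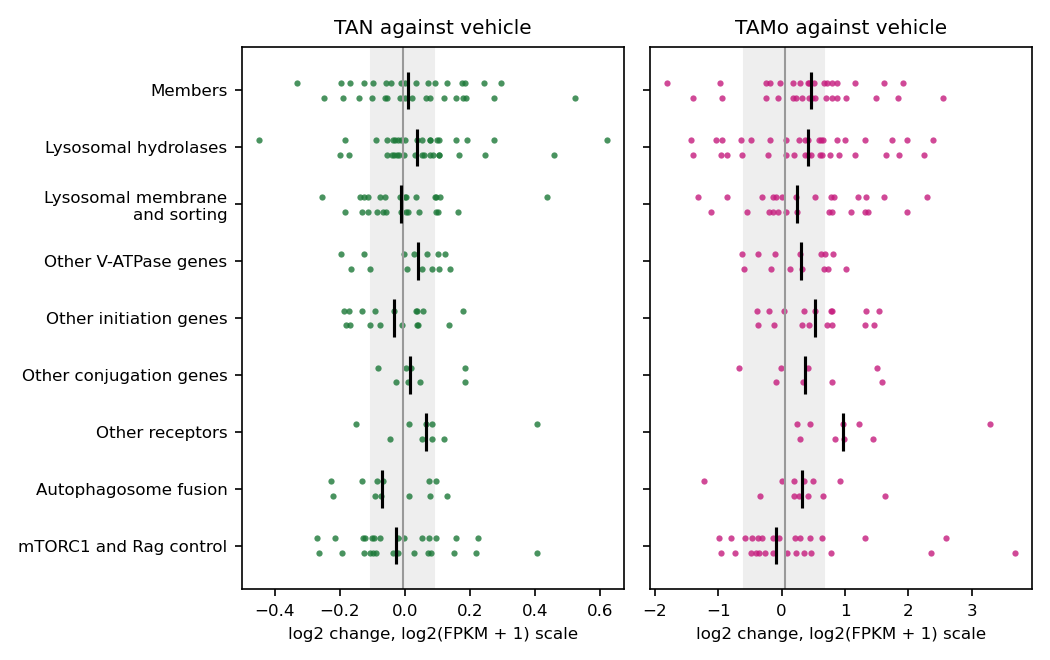
log2 change against vehicle on the log2(FPKM + 1) scale of each tested gene (points) in the 34 members and in 8 further lists, for TAN on the left and TAMo on the right, with a black bar at each median. The grey line and band are the median and the interquartile range of all 10727 tested genes. The TAMo medians reach from -0.08 for mTORC1 and Rag control genes to 0.97 for other receptors, and the TAN medians stay near 0.

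The members' changes were then set beside the promoter motif. Of the 8 tested members with the flanked core, 7 rose with TAMo and Gla did not pass the test, with a median log2 change of 0.77 and a range from 0.18 to 2.54. Atg7 is counted among them by its internal start. Of the 20 tested members with a promoter and without it, 14 rose and 5 fell, with a median of 0.42 and a range from -1.80 to 1.91. Ulk1 and Npc2, with rises of 3.97-fold and 2.84-fold, were among those without it. Over all tested genes with a promoter, 49.4% of the 614 with the flanked core and 45.2% of the 7744 without it rose with TAMo, with medians of 0.15 and 0.04. Falls numbered 232 among the 614 and 3196 among the 7744. With TAN 1 of the 8 members with the flanked core and 4 of the 20 without it rose (12.5% and 20%, against 7.98% and 9.62% of all tested genes), with medians of 0.05 and 0.01.

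Some levels share exon sequence with neighbours, and the sources used here do not say whether reads were counted by strand. Exons of Ctsd overlap those of another annotated gene on the same strand by 34.4%, a gene not analysed here. Exons of Ctsa overlap by 10.5% those of Pltp, which had 0.995 and 0.552 FPKM with TAN, 20.1 and 17.9 FPKM with TAMo and 1.10 and 1.20 FPKM with vehicle, so the partner of Ctsa moved in the same direction. Exons of Ctsb overlap by 12.8% those of Fdft1, at 36.4 and 33.9 FPKM with TAN, 11.02 and 10.996 FPKM with TAMo and 37.0 and 36.8 FPKM with vehicle, opposite to Ctsb with TAMo. For Sqstm1 the overlap with Mrnip was 17.3%, and Mrnip was at most at 4.01 FPKM. Exons of Gabarapl1 and Ctsl overlap those of genes on the other strand by 28.3% and 26.8%, and those of Ctsl also a pseudogene on the same strand by 6.1%, genes not analysed here. The part of these overlaps in the changes was not tested.

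Set beside each other, TAN and TAMo differed most in Ctsd, with a log2 difference of TAN against TAMo of -2.51, followed by Tfeb at 1.96 and Ulk1 at -1.95. The 6 genes higher with TAN than with TAMo were Tfeb, Ctsl, Ctsz, Neu1, Atg16l1 and Gabarapl1. The 5 that did not pass this test were Cd63, Ctss, Gla, Becn1 and Gabarapl2. The median member level per length was 21.8 FPKM with TAN, 27.2 FPKM with TAMo and 24.7 FPKM with vehicle. Ranked among all tested genes of its group, the members' median percentile was 59.1 with TAN, 64.1 with TAMo and 62.2 with vehicle.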

How the data were processed

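RNA of OT-I CD8+ T cells was sequenced in 6 libraries, which were grouped and numbered by their labels. The authors deposited 1 FPKM value for each gene in each library. Per the submitters' processing notes, the tools were featureCounts 1.5.0-p3, HISAT2 2.0.5 and CASAVA and the build was mm10, and neither their roles nor their order is stated. The sources used here do not state the annotation, the strand setting or the gene lengths. Because FPKM divides by the library's reads, a change in abundant transcripts shifts the FPKM of the rest. No counts were used. Depth was estimated from steps among low FPKM values (up to 40 reads, whole within 0.1) in 7708 genes with 1 annotated transcript, and 1 read in a gene of 2 kb was worth 0.0111 to 0.0228 FPKM. The depth of TAMo replicate 1 is uncertain. Symbols of 25258 of the 25638 genes matched GENCODE release M21 on GRCm38, the assembly of mm10, from which coordinates and exon overlaps were taken.

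The test covered 10727 genes, those that reached 1 FPKM in 2 or more libraries, on the scale log2(FPKM + 1) in 1 limma model (limma 3.58.1 in R 4.3.3, fitted with its variance trend) of the 6 libraries. Tests were two-sided, with 3 residual and 4.07 prior degrees of freedom, and a Benjamini-Hochberg adjusted p under 0.05 over all tested genes is a call. Without adjustment, 3737 genes had p under 0.05 with TAN against vehicle, 9332 with TAMo against vehicle and 9341 with TAN against TAMo. On this scale a low gene's change comes out too small. A fold is the ratio of the groups' mean FPKM, with nothing added, and a value after ± is a standard error.

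All 35 members were described. From 8 further lists of 160 genes, a gene could be named if it was among the 3 largest called changes of its list in a direction and averaged 5 FPKM or more in the higher group. Members, lists and settings were chosen with earlier results of these data known. Marker genes and genes whose exons overlap those of a member are named outside this rule. Alternatives were other pseudocounts, filters, scalings, fits of 2 groups alone, no variance trend, a replicate block and leaving out each library. Promoters were searched as exact letters on both strands of RefSeq sequences.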

Additional observations from a re-analysis of the deposited data

How the results depend on the processing

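Calls moved most between settings in TAN against vehicle, where changes were small. All 3 groups held 2 libraries. Calls that were kept do not remove the limits given above for TAMo, which are its mitochondrial share, its marker levels and the uncertain depth of replicate 1. Of the 30 calls among the 34 genes with TAMo against vehicle, 26 were kept under every alternative in which the gene was tested. Cd63, Map1lc3a and Wipi1 were tested in 15 of the 16, as the filter on a mean of 5 FPKM dropped them. Where no library was left out, the number of called members with TAMo against vehicle stayed between 28 and 30. With TAN against TAMo it ran from 27 to 32. Of the 29 with TAN against TAMo, 27 were kept. Of the 11 with TAN against vehicle, 2 were kept. For TAN against vehicle, no filter on low values gave 1331 called genes instead of 2180 and 5 called members instead of 11, and no variance trend gave 7 called members. Leaving out 1 library gave 725 to 2574 called genes and 3 to 12 called members for TAN against vehicle, where the lone library left is assumed to vary like the other groups. The called genes were 725 without vehicle replicate 1, 829 without vehicle replicate 2, 823 without TAN replicate 1 and 730 without TAN replicate 2, with 4, 3, 3 and 4 called members. Without TAMo replicate 1, whose depth is uncertain, 29 members were called with TAMo against vehicle. Rescaling to 1 sum without mitochondrial transcripts turned Becn1 in TAN against TAMo to a log2 difference of -0.0927 (limma adjusted p = 0.029), against 0.0021 with no call as reported, and the cause was not tested. The same rescaling called Ctss and Gabarapl2 lower with TAN than with TAMo (log2 differences -0.161 and -0.19, limma adjusted p = 0.034 and 0.0232). With this rescaling the median log2 change of all genes with TAMo was 0.146, against 0.057 as reported. Scaling each library by its median ratio over genes called Becn1 lower with TAMo than with vehicle (log2 change -0.123, limma adjusted p = 0.00848). Deviations of libraries with the same replicate number correlated at 0.00782, 0.0567 and 0.0245, so the numbers were not taken to pair the libraries. With the number as a replicate block, 10 members were called with TAN against vehicle, 29 with TAMo against vehicle and 29 with TAN against TAMo.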
